A study of Rattus norvegicus with 6 samples.

Results

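The genes described are the rat's enzymes of cyclic nucleotide and calcium signalling, with the G protein α subunits that drive them and the anchoring proteins that place them. They were chosen by gene symbol, as the phosphodiesterases (Pde), adenylyl and guanylyl cyclases (Adcy, Gucy), subunits of protein kinases A, G and C and of AMP-activated kinase (Prk), calcium/calmodulin kinases (Camk), G protein α subunits (Gna), phospholipases C (Plc) and A-kinase anchoring proteins (Akap). Of 22427 genes with a peak in at least 1 library, 120 entries matched. They stand for 119 symbols, since Pde4d had 2 entries. A gene entry is called a member below. In the RefSeq annotation 119 protein-coding genes fit the same symbols, and 2 among them, Pde11a and Plcb2, had no entry under their symbol. Only 17338 of the 22427 entries have a symbol, and a gene among the rest could not be matched.

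The assay was sequencing of DNA precipitated with an antibody to H3K27me3, the trimethyl-lysine mark of histone H3 that Polycomb complexes place on silenced genes. The cells were primary cardiomyocytes from the hearts of newborn Sprague Dawley rats, grown with serum. The α-KG group (2 libraries, α-KG 1 and α-KG 2) had received 5 mM α-ketoglutarate, a metabolite of the tricarboxylic acid cycle that histone demethylases use as a cosubstrate. The control group (2 libraries, control 1 and control 2) had received phosphate-buffered saline, and both groups were treated for 24 h. The 2 input samples were not analysed here, and the labels do not say whether the libraries of a group came from separate cultures. Each library comes as a list of gene names for which a peak was called, without height, position or read count. A member is therefore listed or not listed in a library. Read depth is unknown, and absence from a list can mean too little signal to call.

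In heart muscle, adrenaline receptors act through the G protein subunit Gαs on adenylyl cyclase, which makes cAMP. Protein kinase A (PKA), held near its substrates by A-kinase anchoring proteins, then raises the force and rate of contraction. Phosphodiesterases break cAMP and cGMP down again. Nitric oxide and natriuretic peptides act through guanylyl cyclases, cGMP and protein kinase G (PKG). Receptors for angiotensin and endothelin act through Gαq on phospholipase C, which releases calcium and activates protein kinase C (PKC), while calcium bound to calmodulin activates the CaM kinases, which take part in growth of the muscle cell.

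Most of these genes were listed in every library. Of the 120 members, 97 (80.8%) were listed in all 4 libraries, against 62.8% of all 22427 genes. A further 5 members divided by treatment. Gna15, Gnai3, Gnat3 and Adcy4 had a listing in each α-KG library and none in the controls, a pattern called gained here. They are 3.85% of the members in both α-KG libraries, beside 4.48% of all genes there. Prkar1b was listed in neither α-KG library and in both controls, a pattern called lost, and is 0.98% of the members in both controls, beside 3.22% of all genes there. The other 18 members were listed in 1 to 3 libraries without dividing by treatment. Because the files hold no peak heights, a change of the mark within a listed gene could not be seen.

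The sequences upstream of the start site are given for Prkar1b, for the gained members and for the members in all 4 libraries with the highest and lowest CpG ratio. CpG-rich starts are where Polycomb complexes are commonly found in mammals. The windows come from RefSeq on assembly GRCr8 and run 5′ to 3′ over the 250 bases before each annotated start, with every CpG dinucleotide (the letters CG, which read the same on both strands) in capitals. Where the peaks lie in these genes is unknown, so a window shows the start of the gene and not the peak. A window was found for 91 of the 120 members (75.8%), less than the 80% set as the minimum for comparing the CpG content of groups of members, so that comparison is void and no group value is given. Gnai3 is without a window.
Prkar1b: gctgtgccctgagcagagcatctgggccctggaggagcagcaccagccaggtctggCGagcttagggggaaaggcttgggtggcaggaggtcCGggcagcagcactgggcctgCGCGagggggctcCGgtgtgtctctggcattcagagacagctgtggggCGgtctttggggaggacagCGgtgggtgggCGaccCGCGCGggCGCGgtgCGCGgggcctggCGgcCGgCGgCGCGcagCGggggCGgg
Adcy4: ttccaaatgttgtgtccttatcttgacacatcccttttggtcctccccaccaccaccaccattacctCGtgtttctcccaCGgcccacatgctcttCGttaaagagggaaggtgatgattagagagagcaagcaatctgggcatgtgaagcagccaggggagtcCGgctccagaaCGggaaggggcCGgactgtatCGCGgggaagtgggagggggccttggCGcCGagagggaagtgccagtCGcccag
Gna15: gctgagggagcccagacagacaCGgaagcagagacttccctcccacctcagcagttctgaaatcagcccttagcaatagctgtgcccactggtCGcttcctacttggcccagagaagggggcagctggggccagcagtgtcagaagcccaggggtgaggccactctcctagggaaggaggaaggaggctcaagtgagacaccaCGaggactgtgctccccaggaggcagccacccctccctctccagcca
Gnat3: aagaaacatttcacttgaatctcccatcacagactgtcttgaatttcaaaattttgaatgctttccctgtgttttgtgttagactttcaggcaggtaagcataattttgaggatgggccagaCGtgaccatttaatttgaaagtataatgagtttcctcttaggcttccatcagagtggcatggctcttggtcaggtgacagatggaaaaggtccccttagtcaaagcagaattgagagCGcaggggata
Pde8a: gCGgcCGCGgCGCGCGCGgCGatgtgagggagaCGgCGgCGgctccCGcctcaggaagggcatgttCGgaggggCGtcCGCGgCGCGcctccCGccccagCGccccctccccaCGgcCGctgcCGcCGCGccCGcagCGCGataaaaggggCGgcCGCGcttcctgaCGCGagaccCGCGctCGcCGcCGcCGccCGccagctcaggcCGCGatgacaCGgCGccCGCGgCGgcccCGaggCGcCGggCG
Camk1g: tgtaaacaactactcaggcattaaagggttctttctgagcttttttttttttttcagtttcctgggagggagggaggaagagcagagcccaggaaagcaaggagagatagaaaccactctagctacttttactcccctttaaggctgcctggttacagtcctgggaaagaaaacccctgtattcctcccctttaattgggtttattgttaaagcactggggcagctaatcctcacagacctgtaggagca
The window of Prkar1b (chr12:20625674-20625923, plus strand) holds 22 CpG, and 14.7% of the 27457 windows in the table hold at least as many. The gained members Adcy4 (chr15:33252027-33252276, minus strand), Gna15 (chr7:8835374-8835623, plus strand) and Gnat3 (chr4:18104333-18104582, minus strand) hold 11, 3 and 2 CpG, and the median over all windows is 6. At least as many CpG are found in 36.1% of windows for Adcy4, in 72.4% for Gna15 and in 82.4% for Gnat3. Among members in all 4 libraries, Pde8a (chr1:144575219-144575468, plus strand) has 51 CpG, a number reached by 0.0619% of windows, and Camk1g (chr13:107430231-107430480, minus strand) has 0.

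α-KG 1 listed 108 members and α-KG 2 listed 114, against 104 in control 1 and 109 in control 2. These are 90.0% and 95.0% of the members with α-KG, against 86.7% and 90.8% in the controls. Control 2 listed more members than α-KG 1, so the groups overlapped. The means were 111.0 ± 4.24 members for α-KG and 106.5 ± 3.54 for control (SD, n = 2 each). The difference of 4.5 members was smaller than the gap between the 2 libraries of either group. With 2 libraries against 2, an exact permutation test cannot give a p below 0.333. The longer lists held more members. Over all genes, α-KG 1 listed 80.8% and α-KG 2 85.5%, against 76.9% in control 1 and 82.2% in control 2. Per 1000 listed genes there were 5.96 members in α-KG 1 and 5.94 in α-KG 2, against 6.03 in control 1 and 5.91 in control 2. On that scale the mean of the α-KG libraries minus that of the controls was -0.0188, within the spread of the controls. The part of list length in the counts was not tested further.

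**Figure D1:**
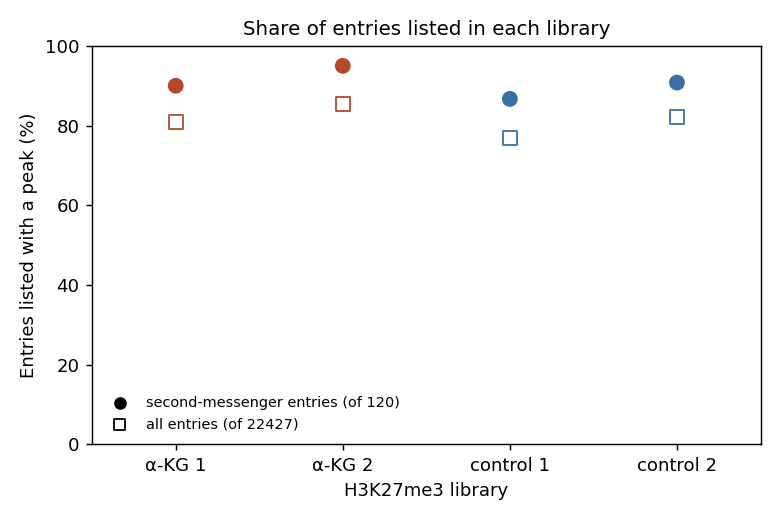
Share of entries listed with a peak (%, vertical axis) in the 2 α-KG and 2 control libraries (horizontal axis). Filled circles are the 120 second-messenger entries and open squares all 22427 entries, and in each library the circle lies above the square, at 90.0%, 95.0%, 86.7% and 90.8%.

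Among G protein α subunits, which couple receptors to the enzymes, α-KG 1 listed 13 of 15 and α-KG 2 all 15, against 10 in each control. Shares over all genes were 80.8% in α-KG 1, 85.5% in α-KG 2, 76.9% in control 1 and 82.2% in control 2. The G protein α subunits were the 1 role of the 12 in which both α-KG libraries listed more members than either control. The role was singled out after its values were seen, and with 2 libraries a group the exact permutation test cannot go below 0.333. The 10 entries in all 4 libraries included GNAS, the symbol of the imprinted gene of the stimulatory subunit Gαs. The only domain given for that entry is neuroendocrine-specific golgi P55, and not a G protein α subunit domain. The others were Gna11, Gnaq and Gna14 (activators of phospholipase C), Gna12 and Gna13 (which act on the cytoskeleton), and the inhibitory class members Gnai1, Gnai2, Gnao1 and Gnaz. None of these 10 can differ between the groups in this measure.

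The gained subunits were Gnai3, Gna15 and Gnat3. Gnai3 (ENSRNOG00000019465), an inhibitory subunit found in most tissues, was listed in α-KG 1 and α-KG 2 and not in control 1 or control 2. Gna15 (ENSRNOG00000005378), a subunit of the Gq class best known from blood cells, had the same listing, as did Gnat3 (ENSRNOG00000005268), the taste cell subunit gustducin. The rod and cone transducins Gnat1 and Gnat2, which pass the signal of light to a phosphodiesterase, were listed in α-KG 2 alone. All 5 thus lacked a listing in both controls, but for Gnat1 and Gnat2 the α-KG libraries did not agree.

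Adcy4 (ENSRNOG00000020401), a membrane adenylyl cyclase stimulated by G protein βγ subunits, was listed in α-KG 1 and α-KG 2 and in neither control. The other 8 membrane cyclases were listed in all 4 libraries. They include Adcy5 and Adcy6, the main forms of the heart muscle cell, and Adcy1, Adcy2 and Adcy3. Adcy10, the soluble cyclase that responds to bicarbonate, was listed in α-KG 1 and both controls and not in α-KG 2.

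Guanylyl cyclases were listed in all 4 libraries in 8 of 9 cases. All 4 subunits of the nitric oxide receptor were among them (Gucy1a2, Gucy1a3, Gucy1b2 and Gucy1b3), as was Gucy2c, the intestinal receptor for guanylin. Gucy2d, Gucy2f and Gucy2g had the same listing. The exception was Gucy2e, listed in α-KG 2 alone.

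Phosphodiesterases formed the largest role, with 25 entries, of which 21 were listed in all 4 libraries, 0 were lost and 0 gained. Those in all 4 were Pde1a, Pde1b and Pde1c (activated by calmodulin), Pde2a (stimulated by cGMP), Pde3a and Pde3b (inhibited by cGMP and targets of cardiac inotropes), and the cAMP-specific Pde4a, Pde4b and Pde4d. Pde5a, the cGMP-specific target of sildenafil, and Pde10a were listed in all 4 as well, and so was Pde12, which acts on oligoadenylates and not on cyclic nucleotides. Pde9a, a cGMP-specific enzyme, was listed in α-KG 1, α-KG 2 and control 2. Pde4c was listed in α-KG 2 and both controls, and Pde6d, a carrier of prenylated proteins, in α-KG 1, α-KG 2 and control 1. Pde6g, the inhibitory subunit of the rod enzyme, was in α-KG 2 alone, whereas the other photoreceptor subunits Pde6a, Pde6b, Pde6c and Pde6h were in all 4.

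Genes of photoreceptors were not uniform. A grouping made after the values were seen took Gnat1, Gnat2, a retinal cyclase gene (Gucy2f) and the Pde6 subunits other than Pde6d. The cyclase gene Gucy2d, in all 4 libraries, was not put in it. Of the 8, α-KG 1 listed 5 and α-KG 2 all 8, against 5 in each control. Beside them, α-KG 1 listed 80.8% and α-KG 2 85.5% of all genes, against 76.9% in control 1 and 82.2% in control 2. The 3 entries that set α-KG 2 apart were absent from α-KG 1, so the 2 libraries of the α-KG group differed as much from each other as α-KG 2 did from the controls.

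**Figure D2:**
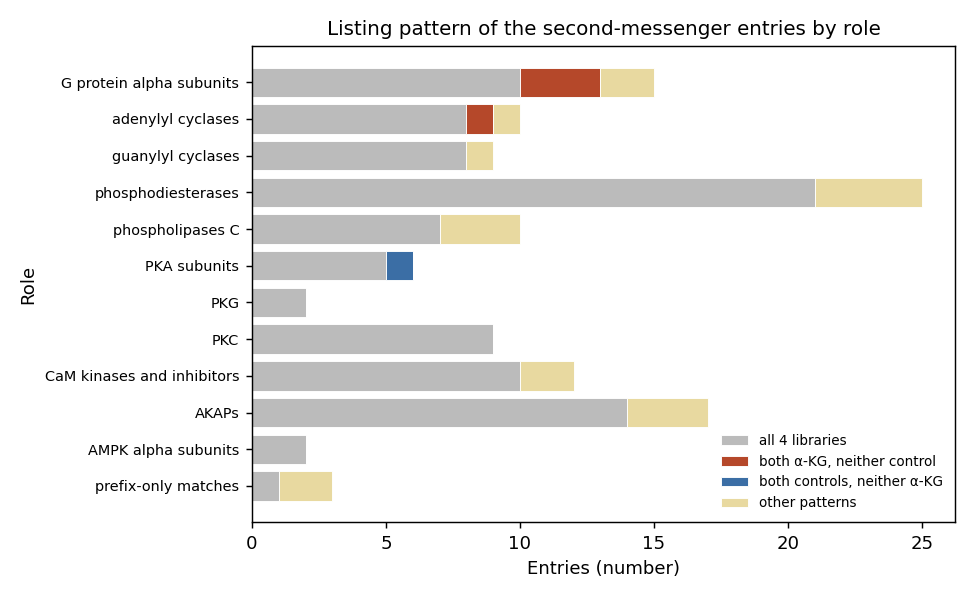
Number of entries (horizontal axis) in each of the 12 roles (vertical axis), divided by listing pattern. Grey bars are entries in all 4 libraries, red those listed with α-KG only, in each of its libraries, blue those in both controls and neither α-KG library, and yellow all other patterns. The 4 gained entries lie among G protein α subunits and adenylyl cyclases, and the 1 lost entry among PKA subunits.

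Phospholipases C, which split a membrane lipid into inositol trisphosphate and diacylglycerol, were listed in 8 of 10 cases in each α-KG library, against 8 in control 1 and 10 in control 2. For all genes the shares were 80.8% in α-KG 1 and 85.5% in α-KG 2, against 76.9% in control 1 and 82.2% in control 2. In all 4 libraries were 7 of the 10 (70.0%), beside 62.8% of all genes. Plcb3 and Plcb4 (activated by Gαq), Plcd1, Plce1 (activated by Ras family proteins), Plcg1, Plcg2 and the sperm form Plcz1 were in all 4 libraries. Plcb1, another Gαq effector, was listed in α-KG 1 and both controls. Plcd3 was listed in α-KG 2 and control 2, and Plcd4 in control 2 alone.

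Prkar1b (ENSRNOG00000028733), a regulatory subunit of PKA that is mostly a brain form, was not listed in α-KG 1 or α-KG 2 and was listed in control 1 and control 2. It was the 1 lost member. The 5 other PKA subunits, the catalytic Prkaca and Prkacb and the regulatory Prkar1a, Prkar2a and Prkar2b, were in all 4 libraries. So were both PKG genes (Prkg1 and Prkg2) and all 9 PKC genes. Among these were Prkca and Prkcb, which need calcium, the calcium-independent Prkcd, Prkce, Prkch and Prkcq, and the atypical Prkci and Prkcz. Prkaa1 and Prkaa2, the catalytic subunits of the energy sensor AMP-activated kinase, also were in all 4.

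CaM kinases and their inhibitors were listed in all 4 libraries in 10 of 12 cases. Camk2d, the main form in heart muscle, Camk2b and Camk2g were among them, as were Camk1d, Camk1g, Camk4 and the upstream kinases Camkk1 and Camkk2. The inhibitor genes Camk2n1 and Camk2n2 were too. CAMK2A, the neuronal form, was listed in α-KG 1 and both controls, and Camk1 in α-KG 1, α-KG 2 and control 2.

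Anchoring proteins were listed in all 4 libraries in 14 of 17 cases. Akap6, which holds PKA and phosphodiesterase at the nuclear envelope of the heart muscle cell, Akap13, which also activates a small GTPase, Akap5 and Akap12, which bind PKA near membrane receptors, and the mitochondrial Akap1 were among them, with Akap10 and Akap11. Akap2 was listed in α-KG 1 and control 2, Akap3, a sperm tail protein, in α-KG 2 and control 1, and the nuclear Akap8 in α-KG 2 alone. Of the 3 entries that match by the start of their symbol but are neither enzymes of these pathways nor named anchors, Prkcdbp (a protein of caveolae) was in all 4. Pde4dip (myomegalin) and Prkcsh (a glucosidase subunit of the endoplasmic reticulum) were in α-KG 2 and control 2.

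**Figure D3:**
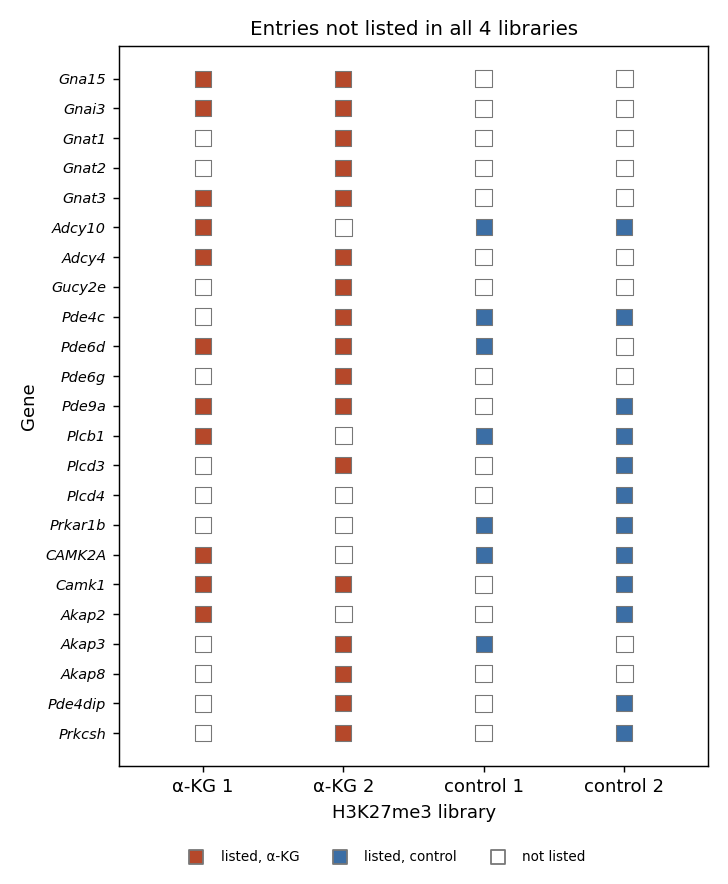
Listing of the 23 entries that were not in all 4 libraries (rows, in the order of their roles) in the α-KG and control libraries (columns). Filled squares are listed and open squares not listed. Gna15, Gnai3, Gnat3 and Adcy4 are filled in both α-KG columns only, and Prkar1b in both control columns only.

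The share of members that changed did not stand above that of all genes. Of the 102 members listed in both controls, 1 was lost, and of all 16005 genes listed in both controls 516 were lost. Of the 104 members listed in both α-KG libraries, 4 were gained, and of all 16287 such genes 729 were gained. In α-KG 2 alone were 5 members (4.17%), beside 6.96% of all genes and 7.88% of those with a gene symbol. Entries with a gene symbol, as all members have, gave backgrounds of 2.97% lost, 4.55% gained and 63.1% in all 4. Members are related genes of the same 4 libraries and not replicates, so no p is given for these shares.

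With a library left out, both patterns need fewer libraries, so the counts of changed members can only stay or rise. Without α-KG 1, 4 members were lost and 9 gained. The 3 more that were lost are Adcy10, Plcb1 and CAMK2A, which α-KG 2 lacks, a pattern of 2.5% of members and 3.8% of all genes. The 5 more that were gained are those in α-KG 2 alone, 4.17% of members beside 6.96% of all genes. Without α-KG 2, 2 were lost, Prkar1b and Pde4c, and 4 gained. Without control 1, 2 were lost, Prkar1b and Plcd4, and 5 gained, with Pde6d added. Without control 2, 1 was lost and 6 gained, with Pde9a and Camk1 added. The pattern of Pde4c is that of 0.833% of members and 2.49% of all genes. For Plcd4 these shares are 0.833% and 2.27%, for Pde6d 0.833% and 1.69%, and for Pde9a and Camk1 1.67% and 4.91%. Lost and gained shares over all genes were not computed with a library left out. The 5 members that divide by treatment in all 4 libraries were called in each of these cases by construction.

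Libraries of the same treatment did not in each case agree more closely on the members than libraries of different treatment. The 2 α-KG libraries differed in 14 members (11.7%) and the 2 controls in 9 (7.5%). α-KG 1 differed from control 1 in 10 members (8.33%) and from control 2 in 11 (9.17%), fewer than from α-KG 2. α-KG 2 differed from control 1 in 18 (15.0%) and from control 2 in 17 (14.2%). For each pair the share over all genes was higher, from 16.4% between the controls to 26.4% between α-KG 2 and control 1. Each library enters 3 of the 6 pairs, which were therefore not tested.

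**Figure D4:**
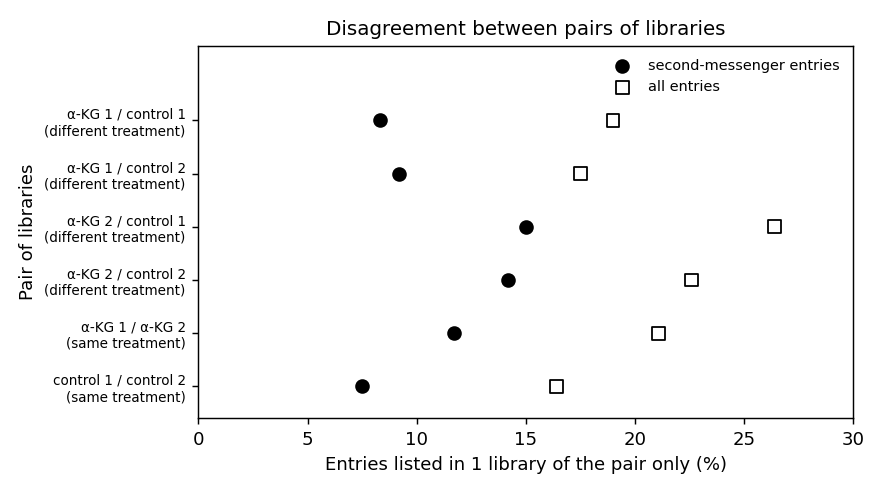
Share of entries listed in only 1 library of a pair (%, horizontal axis) for the 6 pairs of libraries (vertical axis). Filled circles are second-messenger entries and open squares all entries. The α-KG pair lies at 11.7% and the control pair at 7.5% of second-messenger entries, and pairs of different treatment span 8.33% to 15.0%.

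Listing differed between genes that lie side by side. In the gene order of the RefSeq annotation, Gnat2 and Gnai3 are neighbours, and Ampd2 (AMP deaminase), on the other side of Gnat2, had the gained pattern of Gnai3, while Gnat2 between them was in α-KG 2 alone. Gna15 lies next to Gna11, Gnat3 next to Gnai1, Akap8 next to Akap8l and Plcb1 next to Plcb4. In each of these pairs the partner was listed in all 4 libraries and the first gene was not. Gucy1a3 and Gucy1b3, whose proteins form a dimer, are neighbours and were both in all 4. Next to Prkar1b, both Dnaaf5 and Pdgfa were in all 4 libraries. Of the 8 neighbours of the 5 changed members that had an entry, 5 were in all 4 libraries and 0 had the same pattern as the member. Of 159 such neighbours of members in all 4, 117 (73.6%) were in all 4 too, and of 37 neighbours of the other members 23 (62.2%) were, beside 62.8% of all genes. A neighbour is counted once for each member entry it lies beside, so Depdc1b and Rab3c, beside both Pde4d entries, are counted more than once. How peaks were assigned where genes lie close together is not stated in the labels.

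Other genes with the same protein domains were set beside the 62.8% of all genes that were in all 4 libraries. The domain of adenylyl and guanylyl cyclases is carried outside the members by Npr1 and Npr2, the natriuretic peptide receptors, both in all 4. The X domain of phospholipase C is carried by 8 other named entries, of which 5 were in all 4, a share close to that of all genes, among them Plcl1, Plcl2 and Plch1. The cyclic nucleotide-binding domain is carried by 24 other named entries, of which 20 were in all 4, among them the pacemaker channel genes Hcn2 and Hcn4 and the cAMP-activated exchange factor genes Rapgef3 and Rapgef4. Pnpla7 and Slc9c1 were gained, where 4.48% of all genes in both α-KG libraries were. Cnbd2 was lost, where 3.22% of all genes in both controls were. The G protein α subunit domain name is shared by 19 other named entries, most of them small GTPases of the Arf family, and 12 were in all 4, again close to the share of all genes, Gnal (the olfactory Gα subunit) among them. Some entries with no symbol carry these domains too. Of 2 with the G protein α subunit domain name, 1 was in all 4 and 1 in α-KG 1 and both controls. The 1 with the phospholipase C X domain was in α-KG 1 alone, and the 1 with the cyclic nucleotide-binding domain in all 4. The domains were chosen after the members were seen.

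Of the genes that work beside the members, 112 were put on 5 lists, which had 109 entries. Adra1b, Grk3, Chrm2, Gng12, Cnga1, Cnga4 and Prkd3 had no entry under their symbol and are left out of these counts. Nos2, Gnb5 and Rgs3 had more than 1 entry each, and each entry is counted. In all 4 libraries were 88 entries (80.7%), beside 62.8% of all genes. The α-KG lists held 99 (α-KG 1) and 105 (α-KG 2) of the 109 entries, against 93 in control 1 and 99 in control 2. All genes were listed at 80.8% (α-KG 1) and 85.5% (α-KG 2), against 76.9% in control 1 and 82.2% in control 2. Over the 5 lists, 0 entries were lost and 1 was gained, Ric8a, a chaperone of G protein α subunits. Over all genes 3.22% of those in both controls were lost, and 4.48% of those in both α-KG libraries were gained. The calcium, inositol trisphosphate and diacylglycerol list was nearly complete, with 28 of 29 entries in all 4, including the calmodulin gene Calm2. The effectors of cAMP and cGMP had 20 of 23 in all 4, with Atf1 and CREM as examples. Calcineurin and NFAT genes had 10 of 13, including Nfatc1 and Nfatc2, and G protein βγ and RGS genes 19 of 26, including Gnb1 and Gnb2. Receptors and their kinases had 11 of 18, including Adra1a and Adra1d. In that list α-KG 1 had 15 and α-KG 2 had 18 entries, against 12 in control 1 and 15 in control 2, and 3 of the 18 are entries of Nos2 (inducible nitric oxide synthase).

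Of 14 markers of the labelled cell type, 6 were in all 4 libraries, and 4 (Tnnc1, Myh6, Myl3 and Ttn) had no entry under their symbol. With α-KG, 7 (α-KG 1) and 8 (α-KG 2) of the other 10 were listed, against 7 in each control, and Ryr2 among them had the lost pattern. Of 9 endothelial entries, 7 were in α-KG 1 and 8 in α-KG 2, against 5 in control 1 and 9 in control 2. The 9 fibroblast entries had 6 in α-KG 1 and 8 in α-KG 2, against 9 in control 1 and 7 in control 2. Smooth muscle and pericyte markers had 5 of 6 in each α-KG library, against 3 in control 1 and 6 in control 2. Immune markers had 5 of 6 in α-KG 1 and 4 in α-KG 2, against 5 in control 1 and 6 in control 2, and neural markers had 8 of 8 in each α-KG library, against 7 in each control, with Tubb3 gained. Markers of other cell types also lacked an entry under their symbol and are left out of these counts. They were Col1a2 (fibroblast), Acta2 and Tagln (smooth muscle), and Cd68 and Cd3e (immune). Of all genes in both controls 3.22% were lost, and of those in both α-KG libraries 4.48% were gained. All genes were listed at 80.8% in α-KG 1 and 85.5% in α-KG 2, against 76.9% in control 1 and 82.2% in control 2. In all 4 libraries were 62.8% of all genes. A listing does not show which of the cells carried the mark, and a change in the mix of cells cannot be told apart from a change within cells.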

How the data were processed

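H3K27me3 libraries of neonatal rat cardiomyocytes, 2 given α-KG and 2 given saline, were compared. Groups and replicate numbers are those of the labels. The authors deposited, for each library, a text list of genes with a peak (Ensembl ID, symbol and protein domains), with no count, score or position. CASAVA, BWA, MACS2 and build rn6 are named in the submitters' processing notes without roles or versions. The use of input is not stated, and the rule that ties a peak to a gene is not given in the sources used here.

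Lists were read with Python 3.11.15, pandas 2.3.3 and numpy 2.4.6, and figures drawn with matplotlib 3.10.9. A member is an entry whose symbol matches the rule, case ignored. Lost means listed in both controls and neither α-KG library, of entries in both controls. Gained means the reverse, of entries in both α-KG libraries. The members and lists were chosen with earlier results of these data known, so shares of members carry no p. The smallest p that an exact permutation of 2 against 2 libraries can give is 0.333. Pattern calls were run on simulated lists seeded with these patterns, which checks the code and not the calls on real lists. RefSeq (assembly GRCr8) differs from rn6 and served for names, gene order and promoter windows. All 120 members were placed in it, 116 by current symbol. Every member not in all 4 libraries is named, with the first 4 by symbol per role in all 4 and a fixed set of cardiac genes. Some genes that the rule names are left out of the text. Gene length was not used.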

Additional observations from a re-analysis of the deposited data

How the results depend on the processing

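The difference in members listed (3.75 percentage points as reported) kept its sign, from 1.25 to 6.25 with 1 library left out, with 1 entry per symbol, without the prefix-only matches and with RefSeq genes as denominator. It was -0.0188 members per 1000 listed genes, a reversal, and this scale divides by the length of each list. The replicate block gave the same 3.75, and 2 pairs cannot give an exact sign-flip p below 0.5. Deviations of same-numbered libraries correlated at 0.0478 across genes. That value cannot decide whether same-numbered libraries were paired, since most genes were listed in all 4 libraries. With 1 library left out, lost members numbered 1 to 4 and gained members 4 to 9. Members in all remaining libraries made up 81.7% to 87.0%, beside 66.0% to 71.6% of all genes. Each pattern is met more easily with fewer libraries, so these values could only stay or rise. The promoter comparison and its alternatives were not run, since too few members had a window. Backgrounds from entries with a symbol were added after the data were seen. Depth is unknown, so a member that is not listed is not shown to lack the mark.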
